A study of Homo sapiens with 12 samples.

Results

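The genes described here encode the subunits of the mitochondrial respiratory chain and of ATP synthase, and they were chosen by symbol alone. The rule took the 13 mRNAs of the mitochondrial genome, the nuclear protein-coding genes whose symbols begin with NDUFA, NDUFB, NDUFC, NDUFS, NDUFV, UQCR, COX4I, COX5, COX6, COX7, COX8A or ATP5, and SDHA to SDHD, without the NDUFAF assembly factors and ATP5IF1. Of the 29735 genes counted in both cell lines, 97 met it, 84 nuclear and 13 mitochondrial. ATP5MF-PTCD1, COX4I2, COX6A2 and NDUFA7 also fit the rule by symbol and were not analysed here. Complex I had 44 members (37 nuclear, 7 mitochondrial), complex II 4, complex III 10 (9 nuclear, 1 mitochondrial), complex IV 19 (16 nuclear, 3 mitochondrial) and complex V, the ATP synthase, 20 (18 nuclear, 2 mitochondrial). NDUFA4 and its relative NDUFA4L2 were counted with complex IV, and so was COX7A2L, which takes part in joining complexes into larger assemblies. RNA was sequenced from 4 groups of 3 libraries, namely A375AR991, the palbociclib-resistant derivative of the human melanoma line A375, parental A375, CHL1AR991, the resistant derivative of the human melanoma line CHL1, and parental CHL1. Palbociclib inhibits the cell-cycle kinases CDK4 and CDK6. A375AR991 had been selected with rising doses over 7 months and CHL1AR991 over 3 months, both in supplemented RPMI and both then held at 4 µM, while the parental lines grew without the drug. All cells spent 72 h without palbociclib before RNA was taken, and the labels do not say whether a derivative was 1 clone or a pool.

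Complexes I to IV sit in the inner mitochondrial membrane and pass electrons from NADH and succinate to oxygen. Complexes I, III and IV pump protons while they do so, and ATP synthase makes ATP from the resulting gradient. The mitochondrial genome supplies core subunits of complexes I, III and IV and the proton channel of ATP synthase. Its genes are transcribed as long RNAs that are cut into shorter messages. The nuclear genome supplies all other subunits, complex II included. In melanoma, high expression of these genes is known from tumours in which the coactivator PPARGC1A acts below the lineage factor MITF.

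Gene levels are in normalised CPM, that is, counts relative to the library total adjusted by edgeR's TMM factors, and 3 counts stood for 0.101 to 0.118 CPM at totals of 25398920 to 29812686 counts per library. The labels do not say that the 3 libraries of a group came from separate cultures, so each p-value reflects the spread among those 3 libraries, part or all of which could be technical. The neural crest factor SOX10 was high in every group, at 307 ± 84.5 and 416 ± 83.2 CPM in resistant and parental A375 and 993 ± 86.6 and 1011 ± 110 CPM in resistant and parental CHL1 (SD, n = 3 each), whereas of the pigment genes PMEL and MLANA averaged at most 1.03 CPM and TYRP1 at most 1.81 CPM in any group. The pigment gene DCT averaged 18.4 ± 0.42 CPM in resistant and 42.9 ± 2.87 CPM in parental CHL1, where it fell, and 0.411 and 0.0911 CPM in resistant and parental A375. Of markers of other cell types, fibroblast genes summed to 43.1 to 53.7 CPM in resistant and 20.1 to 25.2 CPM in parental A375, with 3 of 6 tested higher (COL1A2, COL3A1 and LUM) and 1 lower (PDGFRB), and to 11.1 to 13.6 and 16.4 to 22.0 CPM in resistant and parental CHL1, with 1 of 3 tested lower. Melanocyte lineage genes summed to 284.5 to 431 and 456 to 619 CPM in resistant and parental A375 and to 1207 to 1394 and 1185 to 1428 CPM in resistant and parental CHL1. In A375, 1 of 8 tested was higher (TYRP1) and 1 lower (MITF), and in CHL1, 1 of 10 was higher (S100B) and 3 lower (MITF, DCT and S100A1). MITF averaged 34.4 ± 7.9 and 48.0 ± 5.3 CPM in resistant and parental A375, a log2 fold change of -0.48 (edgeR adjusted p = 0.0423). In CHL1 MITF averaged 24.8 ± 0.94 and 32.1 ± 2.5 CPM in resistant and parental cells, or -0.37 (edgeR adjusted p = 0.0028). Keratinocyte genes summed to 66.8 to 72.9 and 79.9 to 97.3 CPM in resistant and parental A375 (2 of 3 tested lower) and to 10.9 to 13.5 and 11.8 to 12.9 CPM in resistant and parental CHL1 (1 of 3 higher, 1 lower). Leukocyte genes summed to 2.36 to 3.25 and 5.76 to 7.56 CPM in resistant and parental A375 (1 of 1 lower) and to 8.82 to 9.90 and 9.23 to 10.2 CPM in resistant and parental CHL1 (0 of 2 called). Endothelial genes summed to 8.65 to 14.9 and 5.45 to 12.9 CPM in resistant and parental A375 and to 1.22 to 1.71 and 1.53 to 2.51 CPM in resistant and parental CHL1, with the 1 gene tested not called in either line. CD3E and CDH5 averaged at most 0.348 CPM in the groups where they were listed, and KRT5 at most 0.976 CPM, in parental A375. The part of these markers in the results below was not tested, and in bulk RNA fewer cells of a type and less RNA per cell cannot be told apart.

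Most respiratory chain mRNAs did not pass the test in either derivative, and no member passed it in both lines, where 4.05% of the 15975 genes tested in both passed in the same direction and 3.56% in opposite directions. In A375AR991, 8 of 94 tested members rose, 9 fell and 77 did not pass, by edgeR's quasi-likelihood test at a Benjamini-Hochberg adjusted p below 0.05. That is 18.1% of members, against 28.3% of the 18086 genes tested (13.4% higher and 14.8% lower). In CHL1AR991, none of 93 tested members rose, 17 fell and 76 did not pass, or 18.3% against a background of 21% (9.5% higher and 11.5% lower). Among protein-coding genes of at least 10 CPM the called shares were 32% in A375 and 27.6% in CHL1. Resistant and parental libraries did not overlap for 17 members that were higher and 14 that were lower in A375 (42.8% of all genes, 20.9% higher and 21.8% lower), and for 16 higher and 26 lower in CHL1 (37.1%, 18.2% higher and 18.9% lower). By complex, the nuclear calls in A375 were 2 higher and 4 lower of 36 in complex I, none of 4 in complex II, 1 and 1 of 9 in complex III, 3 and 3 of 15 in complex IV and 1 lower of 17 in complex V. In CHL1, 4 of 36, 1 of 4, 2 of 9, 1 of 14 and 5 of 17 fell in complexes I to V. At an unadjusted p below 0.05, 11 members were higher and 9 lower in A375AR991, where 6942 of all 18086 genes passed, and 6 were higher and 26 lower in CHL1AR991, where 5695 of all 17219 passed. DESeq2 called 8 members higher and 9 lower in A375 (2214 and 2443 of all genes) and 0 higher and 16 lower in CHL1 (1381 and 1758 of all genes). The median log2 fold change of the tested members, resistant over parental, was 0.023 in A375 and -0.0325 in CHL1, beside -0.00084 and 0.0058 over all genes tested. Without resistant library 1, resistant library 3 or parental library 2, the count of A375 members that rose was 5, 4 or 5, and without resistant library 3 the count of CHL1 members that fell was 10. Calls over all genes were fewer too. In the same A375 fits 1821, 1764 and 2158 genes rose, against 2426 with all libraries. In that CHL1 fit 1501 genes fell, against 1987 with all libraries. ATP5MGL, COX7A1 and the readthrough gene NDUFC2-KCTD14 were too low to test in either line, at 0.0361 to 0.245 CPM on average per group.

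**Figure D1:**
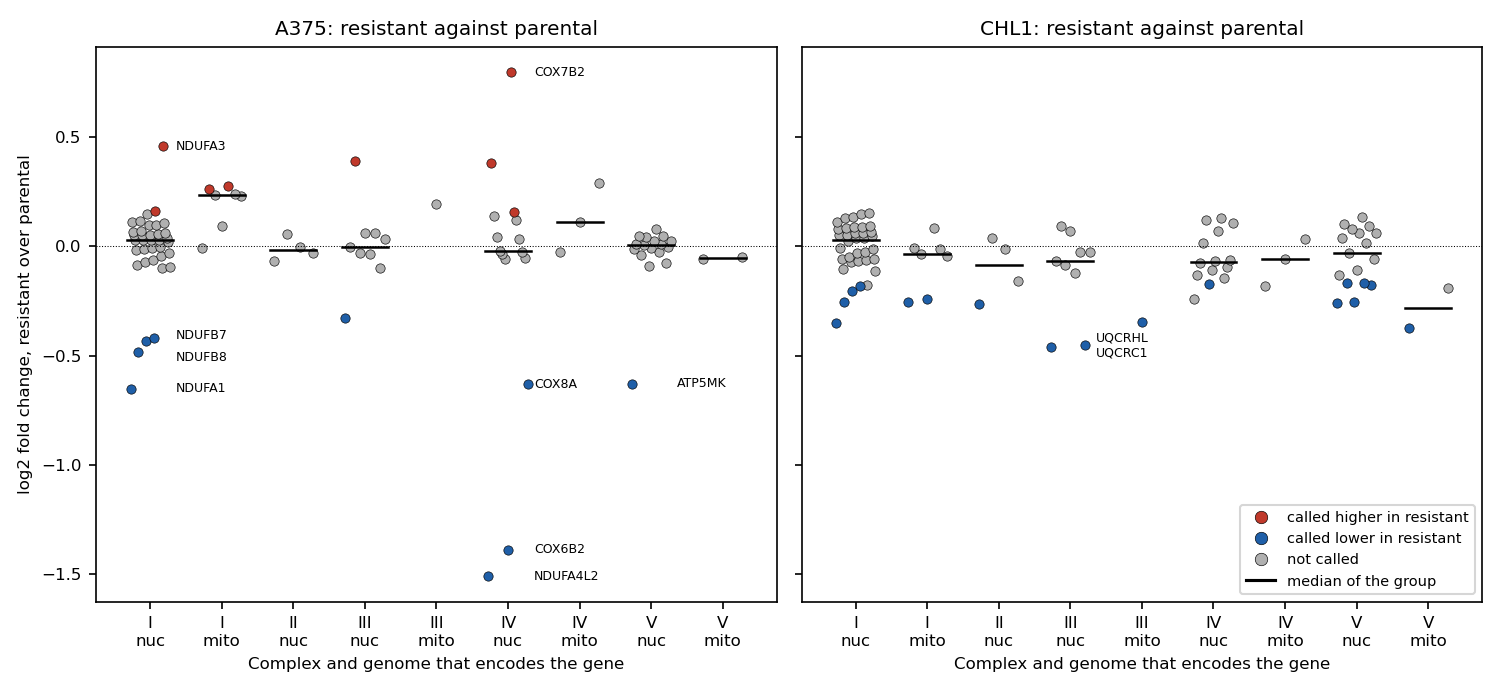
Each point is 1 tested member, with its log2 fold change (resistant over parental) on the vertical axis and its complex and encoding genome (nuc, nuclear; mito, mitochondrial) on the horizontal axis, coloured by the edgeR call; black lines are group medians. Most points lie near 0, the calls of A375 fall on both sides, and the 17 calls of CHL1 all lie below 0.

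The largest falls in A375AR991 among well expressed members were in complexes I, IV and V. COX8A, a small subunit of cytochrome c oxidase, had 101, 99.7 and 102 CPM in the resistant libraries, against 162, 152 and 155 CPM in the parental ones. Every resistant library was well below every parental one, and the log2 fold change was -0.63 ± 0.05 (SE; edgeR adjusted p = 4.93e-05). NDUFA1, an X-linked accessory subunit needed to assemble complex I, had 44.8, 42 and 40.0 CPM in resistant and 66.3, 68.3 and 64.7 CPM in parental libraries, a log2 fold change of -0.65 ± 0.06 (edgeR adjusted p = 0.000123). ATP5MK, a small membrane subunit of ATP synthase, had 73.1, 70.5 and 68.1 CPM in resistant and 107, 114 and 107 CPM in parental libraries, or -0.63 ± 0.06 (edgeR adjusted p = 8.57e-05). In both genes the groups were far apart and the 3 libraries of a group close together. The complex I accessory subunits NDUFB8, NDUFB7 and NDUFA13 fell by 0.48, 0.43 and 0.42 on the log2 scale, again without overlap. UQCRC2, a core subunit of complex III, had 117, 115 and 109 CPM in resistant and 149, 132 and 148 CPM in parental libraries, a log2 fold change of -0.33 (edgeR adjusted p = 0.00455). All 7 of these calls held when any library was left out.

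**Figure D2:**
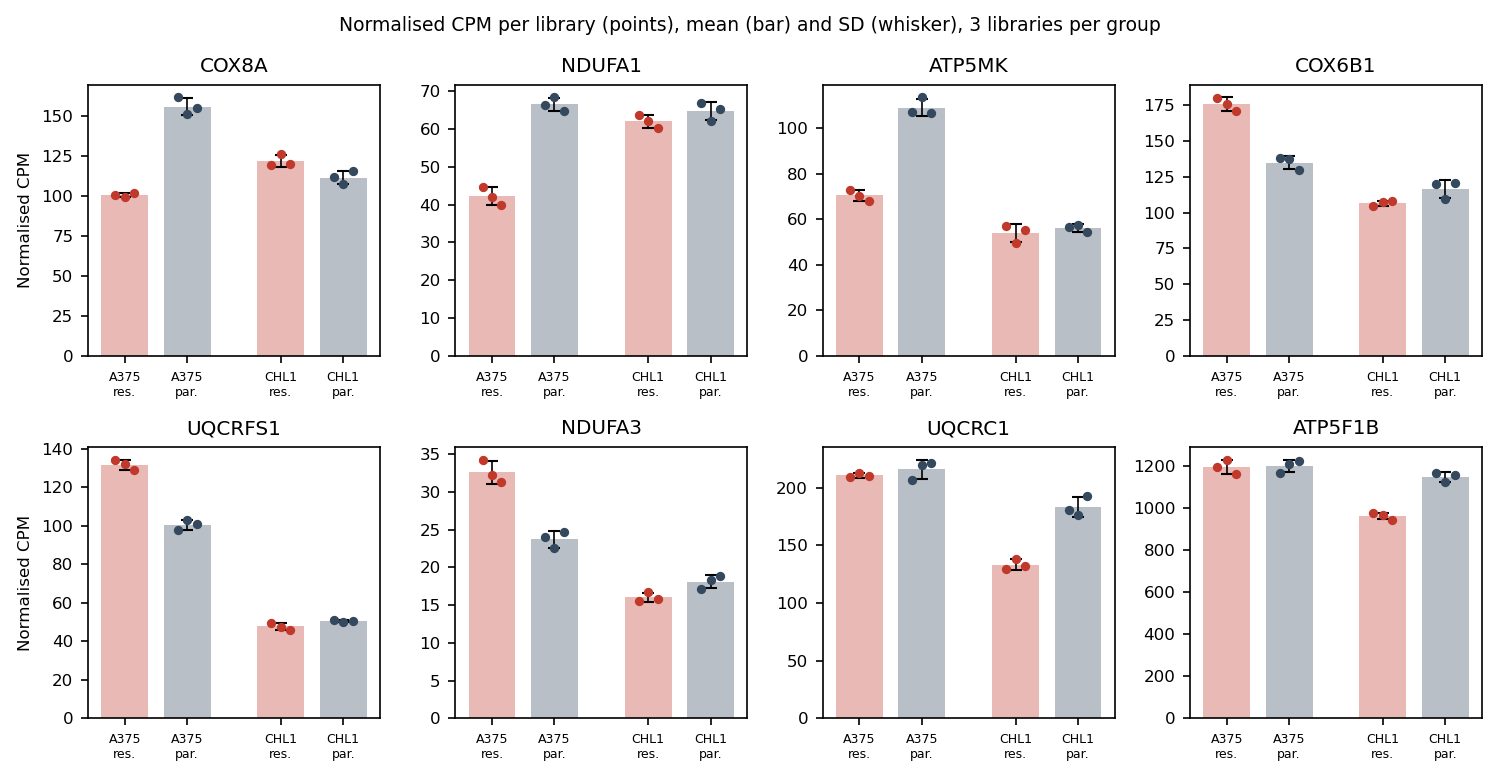
Normalised CPM of 8 members in each library (points), with the group mean (bar) and SD (whisker, n = 3), for resistant (res.) and parental (par.) A375 and CHL1. COX8A, NDUFA1 and ATP5MK are lower in resistant than in parental A375, COX6B1, UQCRFS1 and NDUFA3 higher, and UQCRC1 and ATP5F1B lower in resistant than in parental CHL1 only.

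Among members that rose in A375AR991, UQCRFS1 carries the Rieske iron-sulphur centre of complex III. It had 134, 132 and 129 CPM in resistant and 97.7, 103 and 101 CPM in parental libraries, a log2 fold change of 0.39 ± 0.05 (edgeR adjusted p = 0.000556). COX6B1, a subunit on the outer face of cytochrome c oxidase, had 180.0, 176 and 171 CPM in resistant and 138, 137 and 130.0 CPM in parental libraries, or 0.38 ± 0.05 (edgeR adjusted p = 0.000684). NDUFA3, a membrane-arm accessory subunit of complex I, had 34.3, 32.2 and 31.3 CPM in resistant and 24.0, 22.5 and 24.7 CPM in parental libraries, or 0.46 (edgeR adjusted p = 0.00157). The groups of these 3 genes did not overlap, and their calls held when any library was left out. NDUFS5, an accessory subunit of complex I, had 142, 139.5 and 139 CPM in resistant and 125, 126 and 125 CPM in parental libraries, a log2 fold change of 0.16 (edgeR adjusted p = 0.0284). COX7C, another small subunit of complex IV, had 218, 228 and 232 CPM in resistant and 209, 205 and 194 CPM in parental libraries, also 0.16 (edgeR adjusted p = 0.0486). Both groups were apart, by little, and these calls were weak. NDUFS5 missed the threshold whichever library was left out, at an adjusted p of 0.0505 to 0.0960, and COX7C missed it without each library but parental 1, at 0.0646 to 0.170, and under DESeq2.

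Several complex IV subunits exist in more than 1 form, and the low-level forms moved most in A375. COX7B2, a relative of COX7B known from testis, had 12.2, 13.2 and 12.7 CPM in resistant and 7.12, 7.51 and 7.32 CPM in parental libraries, a log2 fold change of 0.80 ± 0.09 (edgeR adjusted p = 0.00037). In CHL1 it had 1 count in all 6 libraries together and was not tested. NDUFA4L2, a hypoxia-inducible relative of NDUFA4, had 0.419, 0.598 and 0.560 CPM in resistant and 1.46, 1.5 and 1.56 CPM in parental A375 (45 against 117 counts in all), or -1.51 ± 0.21 (edgeR adjusted p = 0.000907). COX6B2, the testis form of COX6B1, had 0.419, 0.432 and 0.224 CPM in resistant and 1.02, 0.654 and 1.18 CPM in parental A375 (31 against 74 counts), or -1.39 ± 0.33 (edgeR adjusted p = 0.0138). Both were lower in every resistant library, but they are a minute share of the complex IV message, and the COX6B2 call was lost without resistant library 3 (adjusted p = 0.0525). In CHL1 neither passed, with log2 fold changes of -0.24 for NDUFA4L2 and -0.08 for COX6B2. The widespread forms NDUFA4, COX6A1, COX7A2, COX7B and COX7A2L passed in neither line, with log2 fold changes of 0.14, -0.02, -0.06, 0.03 and 0.04 in A375 and 0.12, -0.11, 0.11, -0.15 and 0.02 in CHL1. COX6A1 has a near-identical processed copy, so its counts may be incomplete.

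In CHL1AR991 the members that fell included parts of every complex. UQCRC1, a core subunit of complex III, had 130, 138 and 132 CPM in resistant and 181, 176.5 and 193 CPM in parental libraries, a log2 fold change of -0.46 ± 0.05 (edgeR adjusted p = 4.37e-05). NDUFB4, an accessory subunit of the complex I membrane arm, had 43.0, 45.9 and 44.1 CPM in resistant and 55.8, 54.3 and 59.5 CPM in parental libraries, or -0.35 ± 0.05 (edgeR adjusted p = 0.000825). SDHB, the iron-sulphur subunit of complex II, had 93.9, 89.4 and 91.6 CPM in resistant and 109, 109 and 112 CPM in parental libraries, or -0.26 ± 0.04 (edgeR adjusted p = 0.00117). None of these groups overlapped. The other complex II subunits did not pass, with log2 fold changes of -0.01 for SDHA, 0.04 for SDHC and -0.16 for SDHD, and in A375 none of the 4 passed (SDHA -0.0025, SDHB -0.03, SDHC 0.06 and SDHD -0.07). NDUFB5, a further membrane-arm subunit, fell by 0.26 on the log2 scale. UQCRHL, a near-identical copy of the complex III hinge gene UQCRH, had 4.82, 4.48 and 5.19 CPM in resistant and 6.22, 6.71 and 6.90 CPM in parental libraries, or -0.45 ± 0.10 (edgeR adjusted p = 0.00904). Reads of UQCRHL and UQCRH may be split between the copies, and UQCRH itself did not pass at -0.12 (edgeR adjusted p = 0.0539).

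ATP synthase held 5 of the 13 nuclear genes that fell in CHL1AR991. These were 5 of its 17 tested nuclear genes (29.4%), beside 11.5% of all genes tested that fell. ATP5F1B, the catalytic beta subunit, had 974, 966 and 944 CPM in resistant and 1168, 1122 and 1154 CPM in parental libraries, a log2 fold change of -0.26 ± 0.04 (edgeR adjusted p = 0.00118). ATP5PB, of the peripheral stalk, had 169, 159 and 159.5 CPM in resistant and 195, 196 and 193 CPM in parental libraries, also -0.26 ± 0.04 (edgeR adjusted p = 0.000918). The groups of both genes were clear of each other, and both calls held whichever library was left out. ATP5F1A, the alpha subunit that alternates with beta in the catalytic head, ATP5MC3, which encodes the c-ring subunit, and the membrane subunit ATP5MF each fell by 0.17. Their calls were lost without resistant library 3 (adjusted p = 0.0508, 0.0859 and 0.0578), that of ATP5MC3 also without parental library 3 (0.0541) and that of ATP5MF also without parental library 1 (0.0606). COX4I1, the widespread form of cytochrome c oxidase subunit IV, had 134, 137 and 129 CPM in resistant and 155, 150.2 and 146 CPM in parental libraries, or -0.17 (edgeR adjusted p = 0.0142), and it too was lost without resistant library 3 or parental library 1 (0.0753 and 0.0761). NDUFA12 and NDUFA8, accessory subunits of complex I, fell by 0.20 and 0.18. NDUFA12 was lost without resistant 1 or 2 or parental 2 or 3, at up to 0.0958, and NDUFA8 without each library other than resistant 2, at up to 0.138. The NDUFA8 call was also lost in 1 fit of all 12 libraries. Of the 17 calls in CHL1, 9 held whichever library was left out.

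Most mitochondrial mRNAs passed in neither line, and those that did were higher in resistant A375 or lower in resistant CHL1. In A375AR991, 2 of 13 (15.4%) rose, near the 13.4% of all genes tested that rose. None fell, beside 14.8% of all genes, and the median log2 fold change was 0.20. MT-ND1, a core subunit beside the quinone site of complex I, had 820.2, 795 and 902 CPM in resistant and 717, 654 and 728 CPM in parental libraries, a log2 fold change of 0.26 ± 0.06 (edgeR adjusted p = 0.0145). MT-ND5, a proton-pumping subunit of complex I, had 1134, 1075 and 1212 CPM in resistant and 1029, 843 and 953 CPM in parental libraries, or 0.28 ± 0.08 (edgeR adjusted p = 0.0265). Groups were apart in both genes, but MT-ND1 was lost without resistant library 3 (0.0539), and MT-ND5 without resistant 1 or 3 or parental 2 or 3, at 0.0569 to 0.0963. MT-CO1, the catalytic subunit of cytochrome c oxidase, had 3873, 3881 and 4733 CPM in resistant and 3526, 2902 and 3788 CPM in parental libraries and did not pass (0.29; edgeR adjusted p = 0.0787). The other 10 had log2 fold changes of -0.06 (MT-ATP6) to 0.24 (MT-ND6).

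In CHL1AR991, 4 of the 13 (30.8%) fell, beside 11.5% of all genes tested. None rose, beside 9.5% of all genes, and the median log2 fold change was -0.06. MT-CYB, which encodes cytochrome b of complex III, had 1565, 1431 and 1321 CPM in resistant and 1775, 2014 and 1694 CPM in parental libraries, a log2 fold change of -0.34 ± 0.07 (edgeR adjusted p = 0.00513). MT-ND3, a small core subunit of complex I, had 322, 335 and 325 CPM in resistant and 389, 415 and 355 CPM in parental libraries, or -0.24 ± 0.06 (edgeR adjusted p = 0.00949). Both genes had groups that were apart, and both calls held whichever library was left out. MT-ND3 log2 fold change in CHL1 had an adjusted p of 0.0804 in 1 fit of all 12 libraries. The calls of MT-ATP8, a small subunit of the ATP synthase membrane part, and of MT-ND2, a pumping subunit of complex I, had overlapping groups. MT-ATP8 had 603, 427 and 439.5 CPM in resistant and 629, 712 and 565 CPM in parental libraries, or -0.37 (edgeR adjusted p = 0.0403), and was lost without resistant 2 or 3 or parental 1 or 2, at 0.0761 to 0.163, and under DESeq2. MT-ND2 had 2824, 2434 and 2343 CPM in resistant and 3182, 3253 and 2640 CPM in parental libraries, or -0.26 (edgeR adjusted p = 0.0462), and was lost without the same libraries, at 0.136 to 0.169. The MT-ND2 call was also lost in the fit of all 12 libraries. The other 9 had log2 fold changes of -0.19 (MT-ATP6) to 0.08 (MT-ND1).

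Counting limits some mitochondrial genes. MT-ATP8 and MT-ATP6 overlap by 46 bases (chrM:8527-8572, plus strand, GRCh38 coordinates of GENCODE release 29), shown here because a read inside this stretch belongs to both genes.
MT-ATP8/MT-ATP6: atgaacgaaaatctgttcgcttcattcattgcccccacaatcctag
MT-ND4L and MT-ND4 overlap by 7 bases, and MT-ND6 lies on the other strand, which the library kit does not mark. Nuclear pseudogene copies of mitochondrial genes took counts equal to 9.50% to 10.5% of those of the 13 mRNAs in every library. These counts were uneven between genes. In resistant A375, MTCO1P12 had 22153, 22731 and 24255 counts, where MT-CO1 had 354600 in all. MTCYBP18 had 10, 11 and 10 there, where MT-CYB had 106900 in all. Comparisons between mitochondrial genes can therefore be off by unequal amounts.

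The 13 mRNAs together took 1.97%, 1.92% and 2.25% of counts in resistant and 1.87%, 1.64% and 1.97% in parental A375, and 3.12%, 2.79% and 2.63% in resistant and 3.06%, 3.30% and 2.74% in parental CHL1. Both pairs of groups overlapped. Within this pool, some shares were higher or lower in resistant cells of both lines. MT-CO1 made up 20.4% ± 0.80 in resistant and 18.5% ± 0.83 in parental A375, and 19.3% ± 0.33 in resistant and 18.75% ± 0.15 in parental CHL1 (SD, n = 3 each). MT-ND1 made up 4.13% ± 0.07 and 3.82% ± 0.14 in resistant and parental A375, and 5.89% ± 0.23 and 5.16% ± 0.28 in resistant and parental CHL1. MT-CO3, the third core subunit of cytochrome c oxidase, made up 9.10% ± 0.32 and 10.3% ± 0.14 in resistant and parental A375, and 10.4% ± 0.26 and 11% ± 0.22 in resistant and parental CHL1. In all 3 the groups did not overlap in either line, and the same held for the lower shares of MT-ATP6 and MT-ATP8 in resistant cells. In CHL1 the groups were apart for all shares but that of MT-ND6, whereas in A375 those of MT-ND2, MT-ND3, MT-ND4, MT-ND4L, MT-ND5, MT-ND6, MT-CYB and MT-CO2 overlapped. MT-CYB, for example, stood at 6.16% ± 0.18 and 5.96% ± 0.22 in resistant and parental A375, which overlapped, and 5.07% ± 0.06 and 6.01% ± 0.18 in resistant and parental CHL1, which did not. Shares sum to 100, so they are not independent, and they were not tested. Counts of nuclear copies were not added back, so the sizes of shares of different genes are not strictly comparable.

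**Figure D3:**
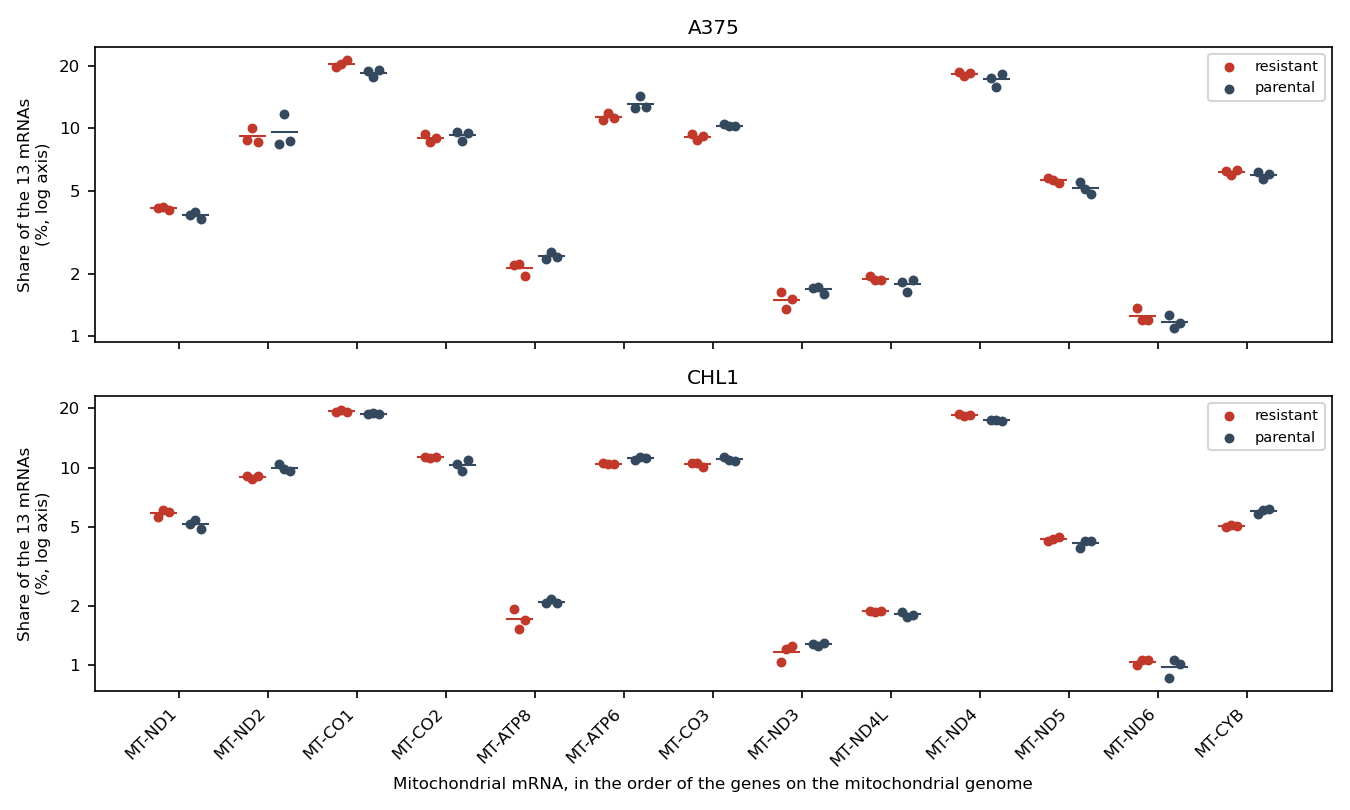
Share of each mitochondrial mRNA in the counts of all 13 (%, log axis), per library (points) with group means (lines), for resistant and parental cells of each line. MT-CO1 and MT-ND4 are the largest, at 17.2% to 20.4% on average, and MT-ND6 among the smallest; MT-CYB is 1 of the shares that overlap in A375 and not in CHL1, where it is 5.07% in resistant and 6.01% in parental cells.

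Summed over genes, the nuclear members gave 9558, 9604 and 9399 CPM in resistant and 9484, 9684 and 9491 CPM in parental A375. The groups overlapped and the means differed by -0.342%. In CHL1 the sums were 8409, 8375 and 8182 CPM in resistant and 8796, 8572 and 8837 CPM in parental libraries, a difference of -4.73% without overlap. Complex V gave the largest part of it, at 3156 ± 57.4 CPM in resistant and 3446 ± 60.7 CPM in parental CHL1 (SD, n = 3 each; -8.42%). Complex III (-6.54%) and complex II (-5.10%) were also lower without overlap, whereas complex I (-0.525%) and complex IV (-1.63%) overlapped. A sum can be carried by a few genes, and ATP5F1B alone gave 961 and 1148 CPM of the complex V sum in resistant and parental CHL1. Complex III summed to 962 and 1030 CPM in resistant and parental CHL1, of which UQCRC1 gave 133 and 183 CPM. Complex II summed to 379 and 400 CPM there, of which SDHB gave 91.6 and 110 CPM. The 7 mitochondrial genes of complex I summed to 8508 ± 608 CPM in resistant and 7408 ± 591 CPM in parental A375 (14.9%), without overlap, and overlapped in CHL1.

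**Figure D4:**
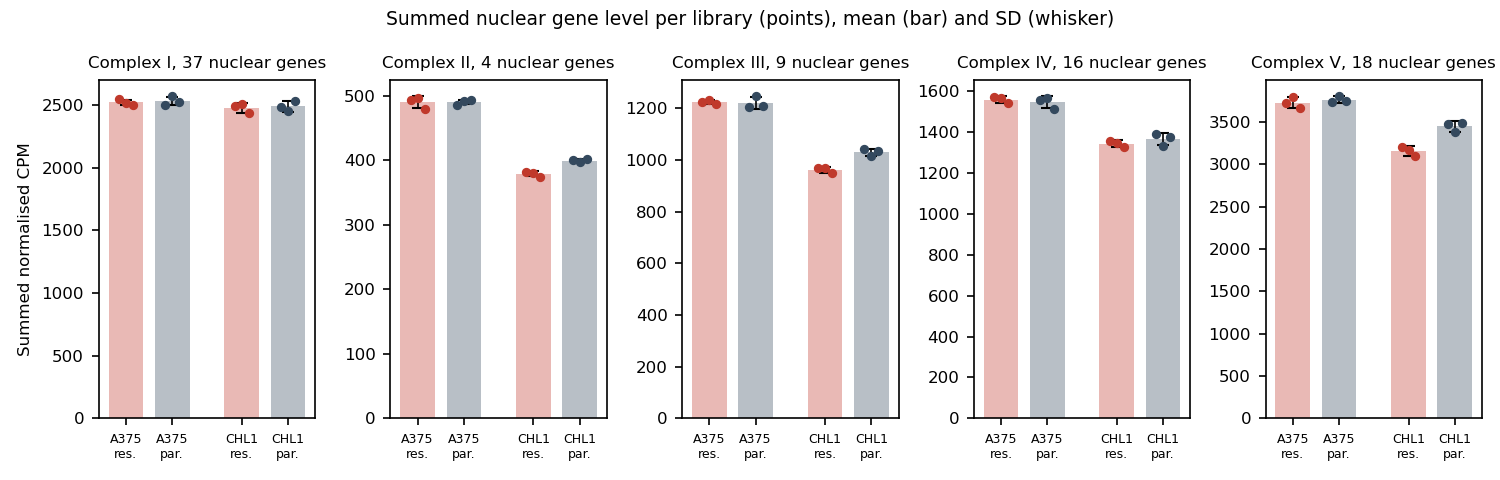
Summed normalised CPM of the nuclear genes of each complex per library (points), with mean (bar) and SD (whisker, n = 3), for resistant (res.) and parental (par.) A375 and CHL1. Sums of A375 overlap in all 5 complexes, while complexes II, III and V are lower in resistant than in parental CHL1.

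Levels per kilobase used the merged length of all annotated exons of a gene, which is at least that of any single transcript. This length was 10908 bases for ATP5F1A, 9715 for UQCRB and 5126 for ATP5F1E. Nuclear levels can therefore be understated, and the order of the genes depends on this length. On that measure, the mitochondrial mRNAs stood above every nuclear member, except that MT-ND6 was below ATP5F1B in A375. MT-ATP6 averaged 3395 and 3530 CPM per kb in resistant and parental A375, and 4366 and 4981 CPM per kb in resistant and parental CHL1, and in resistant CHL1 MT-CO2 was higher still at 4688 CPM per kb. Counts of nuclear copies were not added back. In resistant CHL1 MTATP6P1 took 17692, 17812 and 16466 counts, beside 245694 in all for MT-ATP6. MTCO2P12 took 3455, 3252 and 2968, beside 265089 in all for MT-CO2. The order of these 2 genes may therefore not hold. MT-ND6 was the lowest of the 13, at 484.5 and 410 CPM per kb in resistant and parental A375 and 562 and 566 CPM per kb in resistant and parental CHL1. The highest nuclear gene on that measure was ATP5F1B, at 515 and 517 CPM per kb in resistant and parental A375 and 414 and 494 CPM per kb in resistant and parental CHL1. In CHL1, NDUFS5 followed at 243 and 255 CPM per kb in resistant and parental cells, and then COX8A at 241 and 220.4. In A375, COX8A gave 199 CPM per kb in resistant cells, below UQCRH at 281 and NDUFS5 at 256, and 308 CPM per kb in parental cells, above both (269.5 and 229).

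The change on resistance differed between the lines for 25 of 94 members by the interaction term of a fit over all 12 libraries, beside a background of 23.6% of all genes. It was more positive in A375 for 17 members (background 11.7%) and in CHL1 for 8 (background 11.9%). COX8A had the smallest p, with a log2 fold change of -0.63 in A375 against 0.13 in CHL1 and a difference of -0.76 ± 0.07 (edgeR adjusted p = 2.48e-06). NDUFA1 differed by -0.59 and ATP5MK by -0.57, each with -0.06 in CHL1. UQCRFS1 differed by 0.47, COX6B1 by 0.51 and NDUFA3 by 0.63, all 3 higher in resistant A375 and with CHL1 values of -0.08, -0.13 and -0.18 that did not pass. In CHL1, UQCRC1 (0.42), NDUFB4 (0.35), UQCRHL (0.51), ATP5PB (0.29), ATP5F1B (0.25) and SDHB (0.23) gave positive differences, with falls there and A375 values of -0.04 to 0.06. Among mitochondrial mRNAs MT-CYB differed by 0.54 ± 0.14 (edgeR adjusted p = 0.00939), and no other passed. Of the 25, 20 held in every alternative, and those lost in some included UQCRH, COX7C, NDUFA4L2 and ATP5F1A.

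Of the nuclear members called in A375, 3 that rose and 6 that fell lay among genes whose median shifted the same way by over 0.2 on the log2 scale, and 3 of the 13 that fell in CHL1 did. Neighbours here are the 20 nearest tested protein-coding genes of at least 1 CPM. In A375 the neighbour medians were -0.61 for NDUFA1 (chromosome X), -0.55 for COX8A (chromosome 11), -0.71 for ATP5MK and -0.55 for NDUFB8 (both chromosome 10), and -0.40 for NDUFB7 and -0.47 for NDUFA13 (both chromosome 19). They were 0.38 for COX6B1, 0.35 for UQCRFS1 and 0.45 for NDUFA3, all on chromosome 19. The median over all genes of chromosome 10 was -0.31 in A375 and that of chromosome 19 was 0.19. Other called members stood apart from their neighbours, whose medians were 0.09 for UQCRC2, 0.07 for COX7B2, -0.06 for NDUFA4L2 and 0.32 for COX6B2. In CHL1, the median over chromosome 3 was -0.34, and its members UQCRC1, NDUFB4 and NDUFB5 had neighbour medians of -0.34, -0.38 and -0.26. SDHB (-0.07), ATP5PB (-0.14), ATP5F1B (-0.03) and COX4I1 (0.11) had medians that were closer to 0 or of the other sign. Across genes, which are not independent replicates, members and their neighbour medians correlated at r = 0.43 in A375 (n = 81) and 0.66 in CHL1 (n = 80), with the same libraries behind both axes. For members of at least 10 CPM, r was 0.79 in A375 (n = 79) and 0.66 in CHL1 (n = 77). Rank correlations (Spearman) were lower, at 0.38 in A375 and 0.51 in CHL1, and at 0.42 and 0.47 for members of at least 10 CPM. The part of these shared shifts in each gene's change was not tested.

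**Figure D5:**
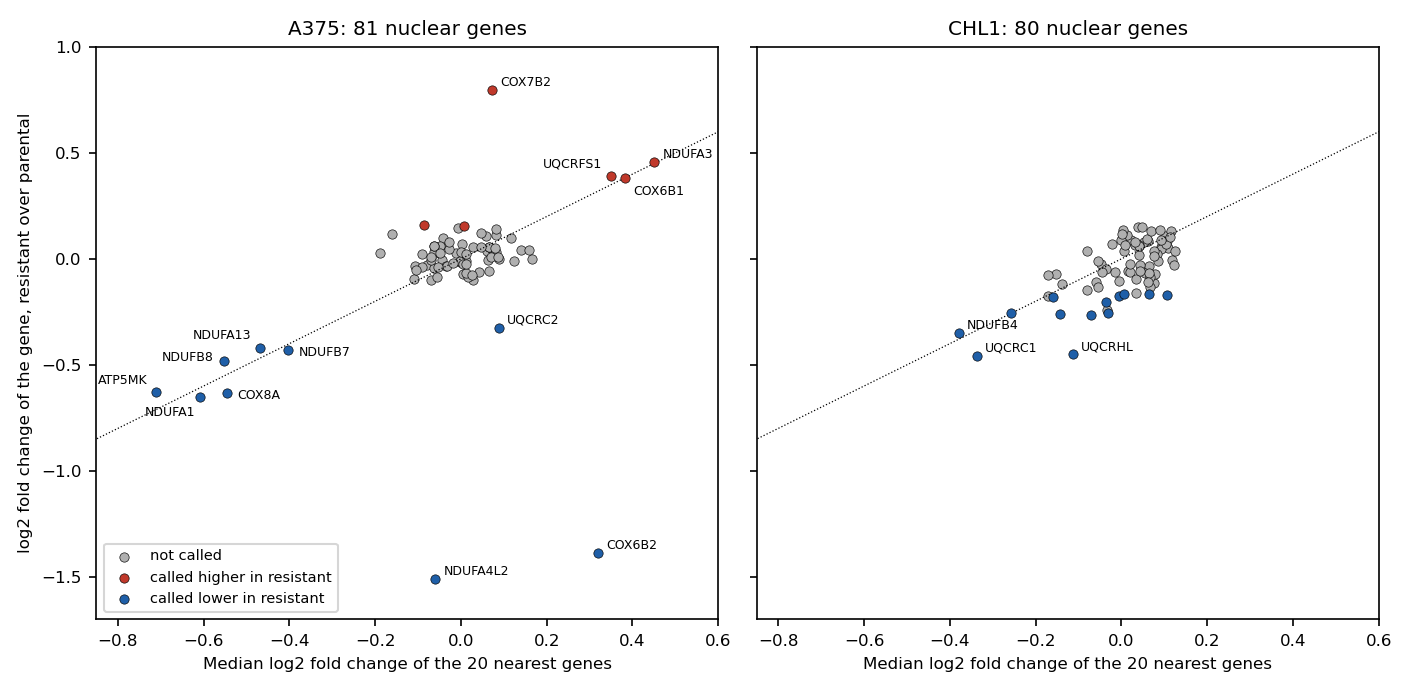
Log2 fold change (resistant over parental) of each tested nuclear member against the median of its 20 nearest expressed genes, coloured by call, with the line of equality dotted. In A375, 9 called genes lie along the line away from 0, and COX7B2, UQCRC2, NDUFA4L2 and COX6B2 lie off it; in CHL1, NDUFB4 and UQCRC1 lie near it.

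The promoters of 5 members that changed are shown, COX8A and NDUFA1 for the falls in A375, COX6B1 and UQCRFS1 for the rises there and UQCRC1 for the falls in CHL1. They come from RefSeq (GRCh38.p14), from 250 bases before to 50 after the start, written along the gene's strand: chr11:63974370-63974669 (plus) for COX8A, chrX:119871582-119871881 (plus) for NDUFA1, chr19:35648073-35648372 (plus) for COX6B1, chr19:29213102-29213401 (minus) for UQCRFS1 and chr3:48609597-48609896 (minus) for UQCRC1. Capitals mark matches, on either strand, to the NRF1 letters (GCGC, then A, then any base, then GCGC), to CCGGAAG (ETS family) or to AANATGGCG (YY1), motifs of factors known to act at respiratory gene promoters.
COX8A: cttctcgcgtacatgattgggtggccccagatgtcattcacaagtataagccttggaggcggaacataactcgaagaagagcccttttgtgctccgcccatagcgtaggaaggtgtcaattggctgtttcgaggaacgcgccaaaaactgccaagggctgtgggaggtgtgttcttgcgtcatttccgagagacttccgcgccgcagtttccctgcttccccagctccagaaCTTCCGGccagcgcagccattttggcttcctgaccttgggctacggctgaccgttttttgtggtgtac
NDUFA1: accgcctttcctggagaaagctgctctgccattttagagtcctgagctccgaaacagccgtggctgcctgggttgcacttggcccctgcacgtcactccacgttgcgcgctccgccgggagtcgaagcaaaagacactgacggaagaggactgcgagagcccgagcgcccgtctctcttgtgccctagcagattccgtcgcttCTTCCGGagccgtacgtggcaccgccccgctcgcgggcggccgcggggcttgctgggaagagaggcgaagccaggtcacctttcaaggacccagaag
COX6B1: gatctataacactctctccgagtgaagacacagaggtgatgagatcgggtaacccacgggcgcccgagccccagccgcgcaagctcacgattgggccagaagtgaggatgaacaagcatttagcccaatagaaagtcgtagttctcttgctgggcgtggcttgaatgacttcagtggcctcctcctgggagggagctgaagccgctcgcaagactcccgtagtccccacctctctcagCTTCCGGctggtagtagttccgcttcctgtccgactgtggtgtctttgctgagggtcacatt
UQCRFS1: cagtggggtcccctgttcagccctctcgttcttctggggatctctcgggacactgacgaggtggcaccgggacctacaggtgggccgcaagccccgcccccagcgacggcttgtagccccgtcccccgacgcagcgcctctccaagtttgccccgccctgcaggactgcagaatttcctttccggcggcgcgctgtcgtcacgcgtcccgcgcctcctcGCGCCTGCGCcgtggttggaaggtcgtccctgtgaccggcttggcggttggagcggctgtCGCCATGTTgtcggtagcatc
UQCRC1: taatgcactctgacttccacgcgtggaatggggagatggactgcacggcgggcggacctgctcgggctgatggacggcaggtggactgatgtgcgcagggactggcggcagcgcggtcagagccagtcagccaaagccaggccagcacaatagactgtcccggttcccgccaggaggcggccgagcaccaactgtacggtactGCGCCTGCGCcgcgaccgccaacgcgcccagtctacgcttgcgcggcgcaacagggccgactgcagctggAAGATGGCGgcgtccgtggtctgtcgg
COX8A, NDUFA1 and COX6B1 each hold 1 ETS match, and UQCRFS1 and UQCRC1 each hold 1 NRF1 and 1 YY1 match, none overlapping another. Of 84 nuclear members 67 had a promoter in the table, and their median GC content was 61%, against 58.3% over all 27305 promoters. NRF1 letters occurred in 23.9% of these members, against 13.3% of promoters of protein-coding genes of at least 10 CPM in A375 and 6.28% of all promoters. The ETS letters occurred in 29.9%, 22% and 10.7%, and the YY1 letters in 22.4%, 8.2% and 3.37%. Of the 8 that fell in A375 with a promoter in the table, 5 held the ETS letters and none NRF1 or YY1 letters, of the 5 that rose 2 held NRF1, 1 ETS and 1 YY1, and of the 8 that fell in CHL1 4 held NRF1, 2 ETS and 2 YY1. A match is a description of the letters only.

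Genes that assemble or supply the chain were read from lists chosen with these data known. Neighbour medians were not computed for any list gene. The part of shared chromosomal shifts, such as those described above, in the changes of list genes was not tested. Of 19 complex I assembly factors, 4 rose and 1 fell in A375AR991, and 3 rose and 2 fell in CHL1AR991, against the backgrounds of 13.4% and 14.8% and of 9.5% and 11.5% given above. DMAC2 rose by 0.48 in A375, and ACAD9 and TIMMDC1 fell by 0.58 and 0.34 in CHL1 (log2). Of 10 assembly factors of complexes II and III, 3 rose and 2 fell in A375 and 2 rose in CHL1. UQCC3, which stabilises cytochrome b, averaged 28.2 ± 1.53 CPM in resistant and 19.1 ± 0.81 CPM in parental A375 (0.57; edgeR adjusted p = 0.00072). Of 25 complex IV assembly factors, 1 rose and 3 fell in A375 and 2 rose and 5 fell in CHL1. COX15, of heme A synthesis, fell by 0.49 in A375, and HIGD1A fell by 0.45 in CHL1. COX17, a copper chaperone for complex IV, passed in both lines (-0.26 in A375 and -0.30 in CHL1), although the A375 call was lost without each library other than parental 3, at up to 0.128. Of 4 ATP synthase assembly and inhibitor genes, 1 rose in A375 (FMC1, 0.41) and 1 fell in CHL1 (ATPAF1, -0.27), FMC1 being lost without resistant 2 or 3 or parental 1 or 3, at up to 0.0776. Of 7 electron carriers, none passed in A375 and ETFDH (-0.25) and cytochrome c, CYCS (-0.14), fell in CHL1. CYCS was lost without resistant 2 or 3 or parental 1 or 2, at up to 0.192, and ETFDH without resistant 3 or parental 1 or 3, at up to 0.0609. The CYCS call was also lost under DESeq2, without TMM factors, with normalisation without mitochondrial genes and in the fit of all 12 libraries.

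Of 35 tested genes of mitochondrial DNA and RNA handling, 3 rose and 2 fell in A375 and none rose and 5 fell in CHL1. For this and the lists below, the background over all genes was 13.4% higher and 14.8% lower in A375, and 9.5% and 11.5% in CHL1. The helicase TWNK averaged 64.4 ± 3.78 CPM in resistant and 96.7 ± 7.76 CPM in parental A375 (-0.59; edgeR adjusted p = 0.000514), and the mitochondrial RNA polymerase POLRMT 108 ± 5.78 and 80.4 ± 5.81 CPM (0.42; edgeR adjusted p = 0.00205). TRMT10C, part of the enzyme that cuts tRNAs out of mitochondrial transcripts, fell by 0.54 in CHL1. Of 75 tested mitochondrial ribosomal proteins, 9 rose and 7 fell in A375 and 5 rose and 10 fell in CHL1, with MRPL43 at -0.72 in A375 and MRPS25 at -0.53 in CHL1. Of 19 pyruvate dehydrogenase and TCA cycle genes, 2 rose and 5 fell in A375 and 1 rose and 6 fell in CHL1. IDH3G, a subunit of isocitrate dehydrogenase, averaged 31.4 ± 0.84 CPM in resistant and 64.3 ± 1.26 CPM in parental A375 (-1.03 ± 0.06; edgeR adjusted p = 7.83e-06). SUCLG2, of succinyl-CoA synthetase, fell in both lines, by 0.33 in A375 and by 0.83 in CHL1, and PDHB fell by 0.56 in CHL1. Of 12 regulators of mitochondrial biogenesis, none rose, 3 fell in A375 (ESRRA -0.74, PPARA -0.70 and PPRC1 -0.44) and 2 in CHL1 (PPARGC1B -0.65 and HIF1A -0.26). PPARGC1A did not pass, at 1.61 ± 0.48 and 1.71 ± 0.40 CPM in resistant and parental A375 and 16.3 ± 1.73 and 18.8 ± 0.91 CPM in resistant and parental CHL1 (SD, n = 3 each). List medians of log2 fold change lay between -0.09 and 0.09 in A375 and between -0.10 and 0.15 in CHL1. As for the assembly factors, whether single list genes moved with their chromosomal neighbours was not tested.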

How the data were processed

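Total RNA was made into libraries with a TruSeq v2 kit, which does not mark the strand, per the labels' protocols. The authors deposited 1 table per line of raw read counts per Ensembl gene, 33932 genes for A375 and 32478 for CHL1, and the values are whole numbers. Tools listed in the submitters' processing notes are limma, HTSeq 0.5, TopHat2, cutadapt 1.7 and CASAVA 1.8.2, and the build behind the counts is not given in the sources used here. Symbols, gene types, exon lengths and gene order came from a table of names and GENCODE release 29, and 2484 and 2284 identifiers had no symbol. Total counts were 25398920 to 29812686 per library, and intervals are not given for means. Floors cover counting error only.

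Each line was fitted with edgeR 4.0.16 (R 4.3.3) over all its genes, with TMM factors, filterByExpr (minimum count 10) and the two-sided quasi-likelihood F-test, adjusted by Benjamini-Hochberg. The SE is the absolute log2 fold change over the square root of F. The difference between lines was the interaction in 1 fit of 12 libraries over 19241 genes. On simulated data the fit recovered 78%, 96%, 100% and 100% of genes changed 1.5-, 2-, 4- and 8-fold in A375, 88%, 98%, 100% and 100% in CHL1 and 48%, 86%, 90% and 96% in the interaction. Unchanged genes made up 5.56%, 5.39% and 7.51% of the calls in A375, CHL1 and the interaction. Changes under 1.5-fold were not simulated, although most called members changed by less, so recovery at their size is not known. Alternatives were DESeq2 1.42.0, no TMM factors, normalisation without mitochondrial genes, other filters, 1 fit of all libraries, the replicate block and leaving out each library. Sums, neighbour medians and motif searches ran in pandas 2.3.3 and numpy 2.4.6, and plots in matplotlib 3.10.9 (Python 3.11.15). Motifs were searched after the calls were known.

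The members, lists and tests were chosen with earlier results of these data known. Named were the 13 mitochondrial mRNAs, up to 8 called members per direction and line of at least 10 CPM with the most extreme fold changes, the 6 smallest interaction p-values, the subunit forms, SDHA to SDHD and up to 3 genes per list with the smallest adjusted p. UQCRHL, NDUFA8, NDUFA12 and other members named beside these were added after their values were seen. Results of single genes that are not reported here remain in the counts.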

Additional observations from a re-analysis of the deposited data

Results flagged for a closer look

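The change on resistance differed between A375 and CHL1 for 25 of 94 tested members, by the interaction term of edgeR's quasi-likelihood fit over all 12 libraries (adjusted p below 0.05). Over all 19241 genes tested the share was 23.6%, so this count is near the background. The change was more positive in A375 for 17 members and in CHL1 for 8, beside 11.7% and 11.9% of all genes. The values given here for members of this set are the log2 fold change in A375 minus that in CHL1. It was more negative in A375 for NDUFA4L2 (-1.27), COX8A (-0.76), NDUFA1 (-0.59), ATP5MK (-0.57), NDUFA13 (-0.51), NDUFB7 (-0.49), NDUFB8 (-0.45) and UQCRC2 (-0.30). In complex I the members with a more positive change in A375 included NDUFA3 (0.63), NDUFB4 (0.35), NDUFB5 (0.31) and NDUFS5 (0.23). In complexes II and III the same held for MT-CYB (0.54), UQCRHL (0.51), UQCRFS1 (0.47), UQCRC1 (0.42), SDHB (0.23) and UQCRH (0.18). In complex IV it held for COX6B1 (0.51) and COX7C (0.22), and in complex V for ATP5PB (0.29), ATP5F1B (0.25), ATP5MF (0.25) and ATP5F1A (0.18). The chromosomal neighbours of COX8A, NDUFA1, ATP5MK, NDUFA13, NDUFB7, NDUFB8, NDUFA3, UQCRFS1 and COX6B1 in A375 and of UQCRC1, NDUFB4 and NDUFB5 in CHL1 had medians past 0.2 in the same direction, and their part in the differences was not tested.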

How the results depend on the processing

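Of 831 values of genes under alternatives in A375, 764 kept their direction and side of the threshold, 34 lost the call, 11 gained one and 22 changed sign. In CHL1 the counts were 831 of 907, with 43, 13 and 20. The values that changed sign were close to 0 and not called in the edgeR fit. Depth limits genes near 1 CPM, such as COX6B2 and NDUFA4L2.

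When 1 library was left out, the log2 fold change in A375 ran from -0.0258 to 0.0181 for ATP5F1B, -0.0887 to 0.00073 for MT-ATP8, -0.0011 to 0.193 for MT-CO2, -0.103 to 0.0520 for MT-CO3, -0.0791 to 0.107 for MT-ND3, -0.0239 to 0.0304 for NDUFB4 and -0.0383 to 0.0391 for SDHA. In CHL1 it ran from -0.291 to 0.245 for COX6B2, -0.0092 to 0.0297 for COX7A2L, -0.130 to 0.0071 for MT-CO1, -0.0509 to 0.0908 for MT-CO2, -0.0179 to 0.183 for MT-ND1, -0.0991 to 0.055 for MT-ND4, -0.129 to 0.0143 for MT-ND4L, -0.0991 to 0.0488 for MT-ND5, -0.0904 to 0.115 for MT-ND6, -0.0042 to 0.166 for NDUFA13, -0.0225 to 0.151 for NDUFB7 and -0.0398 to 0.0154 for SDHA. Without TMM factors the A375 values were 0.0091 for ATP5F1B, 0.0060 for MT-ND3, 0.0100 for NDUFB4 and 0.0119 for SDHA, which stood at 0.0012 with DESeq2 and 0.0020 with a filter at 1 CPM.

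Leaving out 1 library gave 4 to 7 members higher and 8 to 9 lower in A375, and 0 to 2 higher and 10 to 19 lower in CHL1, with 21 to 29 in the difference between lines. Over all genes these fits called 1764 to 2158 higher and 2019 to 2580 lower in A375, and 1050 to 1410 and 1501 to 1887 in CHL1. In the difference between lines they called 1901 to 2435 more positive in A375 and 1818 to 2216 more positive in CHL1. Without TMM factors 1 member, COX8A, was called higher in CHL1, where 1758 of all 17219 genes were. The cause was not tested.

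Same-numbered libraries did not deviate together in every pair (r = -0.0068 to 0.274 in A375 and 0.0066 to 0.146 in CHL1), and not every library correlated best with its own number, so the numbers were not taken as pairs. With the replicate block, 15 members were called higher and 9 lower in A375 (3016 and 3291 of all 18086 genes), 2 higher and 20 lower in CHL1 (2008 and 2331 of all 17219), and 32 differed between lines (2671 and 2693 of all 19241 genes, more positive in A375 and in CHL1).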

Other observations

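Copies of mitochondrial genes on nuclear chromosomes showed libraries that stood apart from their group. MTATP8P1, a copy of MT-ATP8, had 81, 71 and 479 counts in resistant and 154, 61 and 72 in parental A375, and 104, 435 and 1617 in resistant and 106, 98 and 100 in parental CHL1. Resistant library 3 was the highest in both lines, where MT-ATP8 itself had 432, 423 and 435 CPM in resistant A375 and 603, 427 and 439.5 CPM in resistant CHL1. MTND4P12, a copy of MT-ND4, had 1547, 1424 and 1551 counts in resistant and 1203, 940 and 1313 in parental A375, and 269, 283 and 219 in resistant and 708, 419 and 209 in parental CHL1.

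The mitochondrial ribosomal RNAs, which are not among the members, took 0.162% to 0.166% of counts in resistant and 0.122% to 0.151% in parental CHL1, without overlap, and 0.0502% to 0.0572% in resistant and 0.0462% to 0.0573% in parental A375, which overlapped.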
